A study of Mus musculus with 12 samples.

Results

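Immune checkpoint genes were examined in prostate tumours of p62 KO and wild-type hosts. The set holds 10 genes, 5 ligands (Cd274, Pdcd1lg2, Cd80, Cd86 and Lgals9) and 5 receptors (Pdcd1, Ctla4, Lag3, Havcr2 and Tigit), of 19937 genes that had a probe set with a single gene symbol. They were chosen by name, and where a gene had several, the probe set of highest mean level stood for it. All 10 were measured, by 11 of the 28192 probe sets tested, since Cd80 alone had 2.

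TRAMP-C2Re3 is a line of mouse prostate carcinoma, and each tumour began as 50000 of its cells placed in the prostate of C57BL6 mice and left for 60 days. The hosts were p62 KO in 6 cases and wild type (WT) in 6, with a separate mouse for each tumour. The knockout was in the host only. Tumour cells in both groups came from the same injected line with its own Sqstm1, the gene of p62, and all tumours therefore hold a mix of injected and host cells.

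Immune checkpoints are pairs of surface molecules through which T cells are restrained. PD-1 (Pdcd1) binds PD-L1 (Cd274) and PD-L2 (Pdcd1lg2), and CTLA-4 (Ctla4) competes with the activating receptor CD28 for CD80 and CD86. TIM-3 (Havcr2) is found on T cells and also on macrophages and dendritic cells, and galectin-9 (Lgals9) is a reported ligand of it, whereas LAG-3 binds MHC class II and TIGIT binds the poliovirus receptor (Pvr) and nectin-2. The ligands are carried by antigen-presenting cells and in part by tumour cells, and interferon gamma is a known inducer of Cd274.

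Values are RMA log2 intensities, 1 array per tumour, and a difference is the log2 value in p62 KO hosts minus that in WT hosts. Between arrays, correlations were 0.935 to 0.991. The arrays of KO hosts 2 and 3 and WT hosts 2 and 5 had a narrower spread of values (interquartile range 2.15 to 2.59) than the other 8 (2.70 to 2.95), and results that rest on these 4 are given with and without them. Sqstm1 lay between 8.17 and 9.22 in p62 KO hosts, median 8.76, and between 8.55 and 9.16 in WT hosts, median 8.91 (exact permutation p = 0.420), a level that cannot check the genotype because injected cells contribute to it. Of the prostate epithelial markers, Krt8 lay at 7.79 to 8.65 in p62 KO hosts and 7.76 to 8.30 in WT hosts. Epcam (4.32 to 5.16 and 4.38 to 5.05) and the secretory gene Pbsn (2.86 to 3.18 and 2.81 to 3.09) were below the lower quartile on all 12 arrays. Among markers of immune cells, the F4/80 gene Adgre1 of macrophages lay at 8.66 to 10.22 in p62 KO hosts and 9.10 to 10.41 in WT hosts. Cd3e, of the T cell receptor complex, lay at 6.31 to 7.04 and 6.46 to 7.08. In whole tumours, fewer cells of a type and less RNA per cell cannot be told apart.

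Havcr2, the gene of TIM-3, had the largest difference of the 10 genes between host genotypes. Its level was 6.52 at the lowest, 7.88 at the median and 8.21 at the highest in p62 KO hosts, against 7.63, 8.56 and 8.91 in WT hosts. All WT tumours but WT host 5 lay above the highest KO tumour, and KO hosts 2 and 3 lay below the lowest WT tumour. The mean was 7.56 ± 0.68 in p62 KO hosts and 8.48 ± 0.45 in WT hosts (SD, n = 6 each). The difference of -0.92 (SE 0.29, 95% interval -1.55 to -0.29) corresponds to 0.529-fold, with an unadjusted p of 0.00726 by limma and an adjusted p of 0.994 over all probe sets. The exact permutation p was 0.0195. Havcr2 therefore did not pass the threshold of adjusted p under 0.05. A difference at least this far down was found for 0.0674% of the probe sets tested, and one of this size in either direction for 0.0993%. These shares rank differences by size alone. Havcr2 also varied widely, with an SD over the 12 tumours of 0.73, above that of 98.1% of probe sets.

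The Havcr2 difference was present without the 4 arrays of narrow spread. In the other 8 tumours it lay at 7.81 to 8.21 in p62 KO hosts and at 8.48 to 8.91 in WT hosts, without overlap. Of the 10 genes Havcr2 alone was separated in this way, against 2.84% of all probe sets in these 8 tumours, or 1.45% with the KO tumours below. The difference was -0.70 there (SE 0.12, limma adjusted p = 0.220). Without KO hosts 2 and 3 alone it was -0.50 (SE 0.20, limma adjusted p = 0.638), and with each tumour left out in turn it stayed between -1.09 and -0.71.

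Markers of the cells that carry TIM-3 were examined beside it. Of 13 macrophage markers, 11 were higher and 2 lower in p62 KO hosts, against 57.2% of all probe sets higher. By limma 0 were called and 0 had an unadjusted p under 0.05. Their mean level was 8.64 to 9.29 in p62 KO hosts and 8.61 to 9.22 in WT hosts. The 10 dendritic cell markers had mean levels of 5.56 to 5.99 and 5.55 to 5.99, and the 13 measured T cell markers of 5.50 to 5.92 and 5.50 to 5.98. With the macrophage, dendritic cell or T cell level as a covariate, the Havcr2 difference was -1.06, -0.97 and -0.92. The host groups differed in these levels by 0.11, -0.025 and -0.0029, so such covariates could move it little. No conclusion is drawn from these values. These covariates were added after the data had been seen. Markers of B cells, like most of those of macrophages, were higher in p62 KO hosts. Their mean was 5.20 to 5.63 there and 5.01 to 5.34 in WT hosts, with 5 of 5 measured higher. Of these, 1, Cd79a, was higher at an unadjusted p under 0.05 by limma, against 1.28% of all probe sets. With each tumour left out in turn, the Cd79a difference lay between 0.59 and 0.72. For Ms4a1, Cd79b, Pax5 and Blk it lay between 0.0040 and 0.20, so the higher mean rests largely on Cd79a. The median difference of the B cell markers was 0.11 over the 12 tumours, 0.0030 without KO hosts 2 and 3 and 0.07 in the 8 tumours. Across the 12 tumours their level ran against Havcr2 (r = -0.81, rho = -0.74, permutation p = 0.0017 for r, adjusted p = 0.048 over 100 relations), but at -0.37 in the 8 tumours with arrays of wider spread, and their part in the result was not tested. Neutrophil and prostate epithelial markers also ran against Havcr2 without passing (r = -0.60 and -0.78, or -0.20 and 0.31 in the 8 tumours). No value of these markers was 0 on any array.

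**Figure D1:**
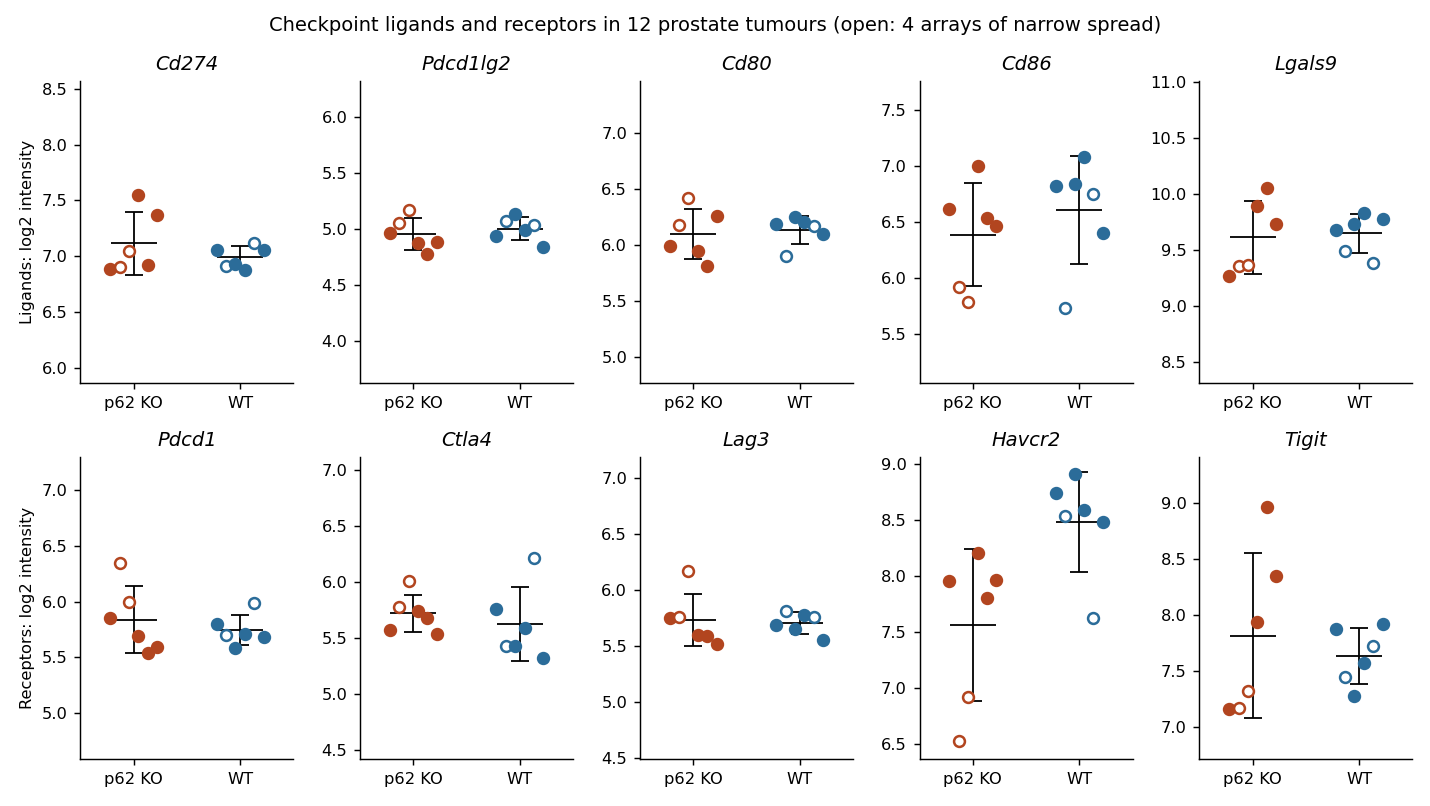
Log2 intensity (vertical axis, the same height of scale in each panel) of 5 ligands (top) and 5 receptors (bottom) in tumours of p62 KO hosts (left in each panel) and WT hosts (right). Points are tumours, open for the 4 arrays of narrow spread, and bars give the mean ± SD of 6 tumours; in the Havcr2 panel 5 of 6 WT tumours lie above all KO tumours, and in the Tigit panel the KO tumours are spread from 7.16 to 8.96.

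The 250 bases before the start of Havcr2 are shown because this gene differed most, and those of Cd274 and Pdcd1lg2 because these ligand genes are neighbours on chromosome 19. The sequences are from RefSeq on GRCm38.p6, plus strand, at chr11:46454681-46454930, chr19:29367188-29367437 and chr19:29410669-29410918. They run 5′ to 3′. Capitals mark a match to TGANTCA, a loose form of the AP-1 motif in which N is any base, here T.
Havcr2: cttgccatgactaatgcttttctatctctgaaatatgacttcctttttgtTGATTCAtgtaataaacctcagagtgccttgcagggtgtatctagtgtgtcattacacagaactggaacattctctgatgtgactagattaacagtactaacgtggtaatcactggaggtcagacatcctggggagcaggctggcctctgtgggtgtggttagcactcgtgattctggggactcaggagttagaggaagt
Cd274: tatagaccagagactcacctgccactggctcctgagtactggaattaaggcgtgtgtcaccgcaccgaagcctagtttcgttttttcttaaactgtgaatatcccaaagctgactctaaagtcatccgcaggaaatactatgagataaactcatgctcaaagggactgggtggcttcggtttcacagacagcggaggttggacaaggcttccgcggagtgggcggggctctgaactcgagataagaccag
Pdcd1lg2: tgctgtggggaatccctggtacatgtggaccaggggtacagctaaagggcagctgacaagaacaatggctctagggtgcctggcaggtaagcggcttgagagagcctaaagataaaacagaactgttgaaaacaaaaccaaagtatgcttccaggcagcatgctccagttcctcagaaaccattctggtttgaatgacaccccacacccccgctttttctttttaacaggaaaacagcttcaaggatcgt
Of the 10 genes, 8 had an entry in the table used. Both strands were searched for 4 motifs of factors known in immune gene regulation. The gamma-activated site TTCNNNGAA and the NF-kB site were found in 0 of these 8, against 7.02% and 0.356% of 32851 promoters. The core of the interferon-stimulated response element was found in Lgals9 alone, against 2.98% of promoters, and TGANTCA in Cd80 and Havcr2, against 6.75%. The Havcr2 match lies 200 to 194 bases before the start. A match is a run of letters and not a binding site.

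Among the ligands of PD-1, Cd274 had similar medians in both groups, and 2 KO tumours stood above all WT tumours. Its level was 6.89 at the lowest, 6.989 at the median and 7.55 at the highest in p62 KO hosts, and 6.88, 6.996 and 7.12 in WT hosts. KO hosts 4 (7.55) and 6 (7.37) were the 2 above. The difference was 0.12 (SE 0.12, 95% interval -0.14 to 0.38, exact permutation p = 0.394). It was 0.03 without KO host 4, 0.07 without KO host 6 and 0.20 in the 8 tumours. KO host 4 was also the highest tumour in Irf1 (8.47), a transcription factor induced by interferon gamma, and in Cxcl10 (9.91), a chemokine induced by it. KO host 6 was at 7.90 in Irf1 and at 8.29 in Cxcl10, there below all WT tumours. It was the lowest of all tumours in Ifng itself (5.18).

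Pdcd1lg2 lay low on the array scale, under the lower quartile on 8 of 12 arrays. Its level was 4.77, 4.92 and 5.17 (lowest, median and highest) in p62 KO hosts and 4.84, 5.01 and 5.13 in WT hosts, and the groups overlapped throughout. The difference was -0.05 (SE 0.09, 95% interval -0.24 to 0.14), or -0.11 in the 8 tumours. The annotation places 1 long non-coding RNA gene and 0 protein-coding genes between Cd274 and Pdcd1lg2, and across tumours the 2 ligands had a correlation below 0 that did not pass (r = -0.35, rho = -0.34, permutation p = 0.263 for r, or r = 0.01 without KO hosts 4 and 6).

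The CD28 and CTLA-4 ligands overlapped between groups as well. Cd80 lay at 5.81, 6.08 and 6.41 in p62 KO hosts and at 5.90, 6.17 and 6.25 in WT hosts, a difference of -0.03 (SE 0.11, 95% interval -0.27 to 0.20) that was -0.18 in the 8 tumours. Its other probe set correlated with the one used at r = 0.653 over the 12 tumours. Cd86 varied more, at 5.79, 6.50 and 7.01 in p62 KO hosts and 5.74, 6.79 and 7.09 in WT hosts, a difference of -0.22 (SE 0.24, 95% interval -0.74 to 0.30). Its 3 lowest tumours, WT host 2 (5.74), KO host 3 (5.79) and KO host 2 (5.92), all had arrays of narrow spread. Without KO hosts 2 and 3 the Cd86 difference turned to 0.05, whereas it was -0.39 without WT host 2 and -0.13 in the 8 tumours.

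Lgals9, the gene of galectin-9, lay above the array's upper quartile, which was at most 7.81, in all tumours. Its values were 9.27, 9.55 and 10.05 in p62 KO hosts and 9.38, 9.70 and 9.83 in WT hosts. KO tumours held both the highest and the lowest values, with 3 below and 2 above all WT tumours. The difference was -0.04 (SE 0.14, 95% interval -0.35 to 0.27).

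Among the receptors that restrain T cells, Pdcd1, Ctla4 and Lag3 differed by at most 0.10 between host groups. Pdcd1 was at 5.54, 5.77 and 6.35 in p62 KO hosts and at 5.59, 5.71 and 5.99 in WT hosts, a difference of 0.09 (SE 0.13, 95% interval -0.19 to 0.38). Its highest tumour was KO host 2 (6.35), and without KO hosts 2 and 3 the difference turned to -0.07. Ctla4, the CTLA-4 gene, was at 5.54, 5.71 and 6.01 in p62 KO hosts and at 5.32, 5.51 and 6.22 in WT hosts, a difference of 0.10 (SE 0.14, 95% interval -0.22 to 0.41), and WT host 5 was the highest. Without WT host 5 the Ctla4 difference was 0.21, without KO hosts 2 and 3 it was 0.0075, and over all single tumours left out it lay between 0.03 and 0.21. Lag3 was at 5.51, 5.67 and 6.16 in p62 KO hosts and at 5.55, 5.72 and 5.81 in WT hosts, a difference of 0.03 (SE 0.11, 95% interval -0.21 to 0.26), which turned to -0.06 without KO host 3.

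Tigit, an inhibitory receptor of T and NK cells, was spread more widely over KO tumours than over WT tumours. Its level was 7.16, 7.62 and 8.96 in p62 KO hosts and 7.27, 7.64 and 7.91 in WT hosts, with SDs of 0.74 and 0.25. KO hosts 4, 5 and 6 lay above all WT tumours and KO hosts 1 and 2 below them. The difference in means was 0.18 (SE 0.28, 95% interval -0.42 to 0.78). KO host 5 was the highest at 8.96, and without it the difference was -0.05, while it was 0.44 in the 8 tumours.

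Across the set, limma called 0 of 10 genes at an adjusted p under 0.05, against 0.00355% of all probe sets, and 1 of 10, Havcr2, at an unadjusted p under 0.05, against 2.39% of all probe sets in either direction and 1.11% with the KO tumours lower. Of the ligands, 1 was higher and 4 lower in p62 KO hosts, with a median difference of -0.04, or 0.05 without KO hosts 2 and 3 and -0.11 in the 8 tumours. Of the receptors, 4 were higher and 1 lower, with a median of 0.09, or -0.07 and -0.03. The median over all probe sets was 0.02, with 57.2% above 0. The groups of 6 did not overlap in 0 of the 10 genes, against 0.145% of all probe sets. The intervals show the changes that remain possible at this number of arrays. For Cd274, a rise of up to 0.38 or a fall of up to 0.14 lies within the 95% interval, and for Tigit the interval reaches from -0.42 to 0.78.

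**Figure D2:**
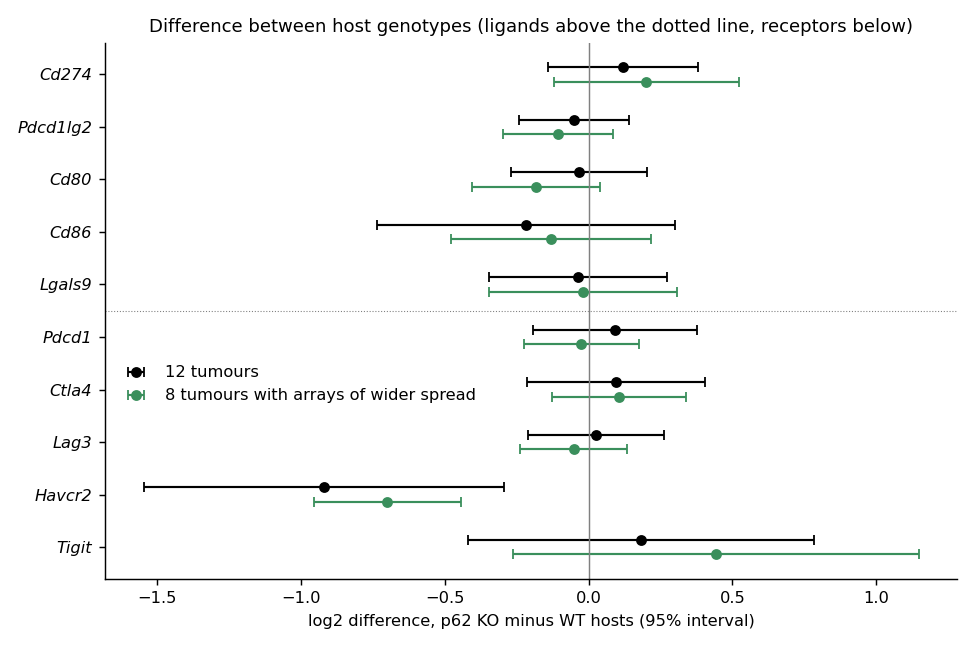
Log2 difference (horizontal axis, p62 KO minus WT hosts) of each ligand and receptor, with 95% intervals from limma, over 12 tumours (black) and over the 8 tumours with arrays of wider spread (green). Havcr2 is the gene whose interval lies below 0 in both, at -0.92 and -0.70.

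The ligands and receptors were next compared within each tumour. Levels of different probe sets cannot be set against each other, so the mean of the 5 ligands minus the mean of the 5 receptors was compared between tumours only. It was 0.30 ± 0.11 in p62 KO hosts and 0.24 ± 0.13 in WT hosts (SD, n = 6 each), a difference of 0.06 that is smaller than the spread within either group. The ligand mean differed by -0.04 and the receptor mean by -0.11. With Havcr2 left out of the receptors, the difference in ligand minus receptor mean was -0.14. Lgals9 minus Havcr2 was 2.05 ± 0.56 in p62 KO hosts and 1.16 ± 0.34 in WT hosts, a difference of 0.88 that holds the Havcr2 difference given above.

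Ligands were then set against their own receptors across tumours. Of the 5 pairs of a ligand with its receptor among these genes, 0 passed an adjusted p of 0.05 over the 45 pairs of the set. Lgals9 and Havcr2 had r = 0.50 and rho = 0.41 over 12 tumours (permutation p = 0.0963 for r, adjusted p = 0.255), but r = 0.00 in the 8 tumours with arrays of wider spread. Pdcd1lg2 and Pdcd1 had r = 0.48 and 0.18, Cd80 and Ctla4 0.29 and -0.39, Cd86 and Ctla4 -0.02 and 0.47, and Cd274 and Pdcd1 -0.22 and -0.15 over the 12 and the 8 tumours. The sign was the same in both for 2 of 5 pairs.

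**Figure D3:**
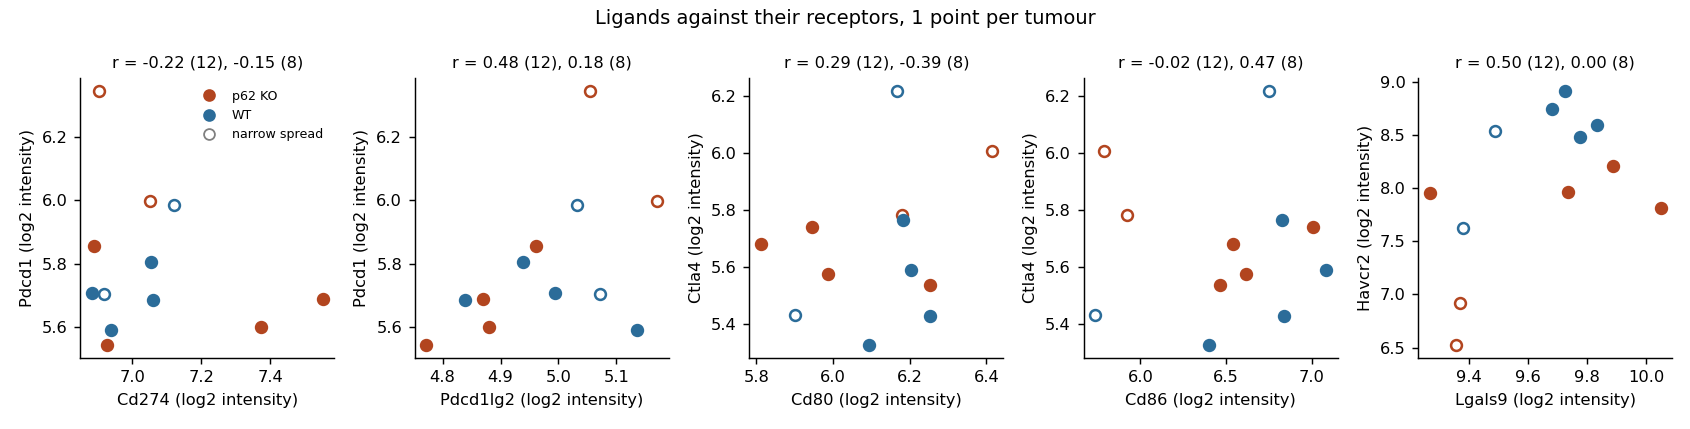
Log2 intensity of each ligand (horizontal axis) against its receptor (vertical axis), 1 point per tumour, p62 KO in orange, WT in blue and open for the 4 arrays of narrow spread. Above each panel is Pearson's r over 12 and over 8 tumours, which reaches 0.50 at most.

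Over all 45 pairs of the set, 5 passed by r (permutation, adjusted p = 0.036 to 0.041) and 0 by rho (adjusted p from 0.055). The strongest was between Pdcd1lg2 and Tigit, which ran against each other (r = -0.81, rho = -0.77, permutation p = 9e-04 for r, adjusted p = 0.036). This relation was also at -0.81 in the 8 tumours, at -0.73 without KO hosts 3 and 5, the tumours farthest from the median of Pdcd1lg2, and at -0.75 on residuals of the interquartile range. It was -0.83 within KO tumours and -0.91 within WT tumours, and weaker at -0.61 with all arrays set to a common median. A correlation with Tigit of at least this size in either direction was shown by 0.284% of all probe sets. Pdcd1lg2 lay low on the scale, as given above.

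Lgals9 and Tigit rose together (r = 0.75, rho = 0.80, permutation p = 0.0032 for r, adjusted p = 0.036). The correlation was 0.72 in the 8 tumours and 0.66 without KO hosts 1 and 2. It was 0.93 within KO tumours and 0.04 within WT tumours, and the difference between them was not tested. Of all probe sets, 0.536% correlated with Tigit as highly.

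For the other 3 pairs, many probe sets were as strongly correlated with the receptor. Lgals9 and Pdcd1 ran against each other at r = -0.75 (rho = -0.78, permutation p = 0.0028 for r, adjusted p = 0.036). Their r was -0.76 in the 8 tumours and -0.82 without KO hosts 1 and 2, but -0.37 on residuals of the interquartile range. Of all probe sets, 25.5% correlated with Pdcd1 at least as strongly in either direction. Pdcd1lg2 and Lag3 rose together at r = 0.75 (rho = 0.78, permutation p = 0.0024 for r, adjusted p = 0.036), or 0.54 in the 8 tumours and 0.67 without KO hosts 3 and 5, and 13.5% of probe sets were as high. Pdcd1 and Havcr2 had r = -0.77 (rho = -0.51, permutation p = 0.0046 for r, adjusted p = 0.041). It was -0.875 within KO tumours and -0.867 within WT tumours. The relation weakened without arrays of narrow spread, since r was -0.29 without KO hosts 2 and 3 and 0.13 in the 8 tumours. Of all probe sets, 14.3% correlated with Havcr2 at least as strongly in either direction.

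**Figure D4:**
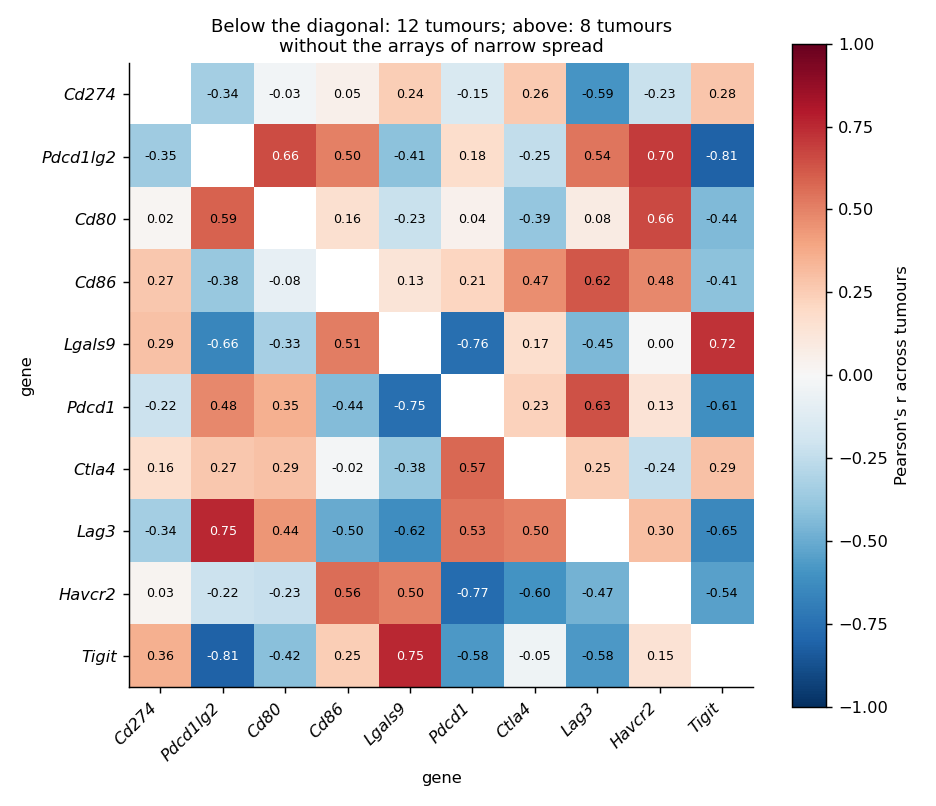
Pearson's r between all pairs of the 10 genes, for 12 tumours below the diagonal and for the 8 tumours with arrays of wider spread above it, coloured from -1 (blue) to 1 (red). Pdcd1lg2 and Tigit stand at -0.81 in both, while the pair of Pdcd1 and Havcr2 is at -0.77 below the diagonal and 0.13 above it.

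The spread of the arrays moved with several of these genes. Across the 12 tumours, the interquartile range had a correlation of -0.85 with Pdcd1, -0.82 with Lag3, 0.76 with Havcr2, 0.72 with Lgals9 and 0.69 with Cd86, and of 0.31 with Cd274. Among the marker lists it was -0.92 with the 5 measured prostate epithelial markers, -0.87 with NK cell markers, 0.78 with endothelial markers and 0.72 with macrophage markers. For that reason relations with markers are given for the 8 tumours beside the 12.

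Set against the mean levels of 10 marker lists, 5 of 100 relations passed by r (permutation, adjusted p = 0.048 each), 0 of them by rho (adjusted p = 0.097 to 0.128), and 0 of 100 passed in the 8 tumours alone. By rho 1 other relation passed, that of Pdcd1 with NK cell markers (rho = 0.87, permutation, adjusted p = 0.033). Its r was 0.78, or 0.77 in the 8 tumours, but 0.15 on residuals of the interquartile range. The mean of the NK cell markers was low, at 4.16 to 4.85 in p62 KO hosts and 4.28 to 4.63 in WT hosts. It lay below the lower quartile of each array. By r, besides Havcr2 with B cell markers, that of Pdcd1 with prostate epithelial markers passed (r = 0.81, or 0.21 in the 8 tumours). So did those of Lag3 with NK cell (0.82, or 0.70), prostate epithelial (0.79, or 0.64) and endothelial markers (-0.79, or -0.16). Without the 2 tumours farthest from the median of the markers, these were 0.65, 0.59, 0.60 and -0.41. On residuals of the interquartile range they were 0.18, 0.36, 0.16 and -0.43. Havcr2 with B cell markers was at -0.83 without KO host 3 and WT host 6, the 2 farthest, and at -0.59 on these residuals. Pdcd1, Ctla4 and Lag3 had positive correlations with the T cell markers, of which 0 passed. The r with that list was 0.59 for Pdcd1 and 0.74 in the 8 tumours, 0.69 and 0.51 for Ctla4, and 0.51 and 0.72 for Lag3. Ctla4 had r = 0.74 with regulatory T cell markers, or 0.27 in the 8 tumours. Tigit, by contrast, had r = -0.48 with the T cell list, or -0.59 in the 8 tumours, and -0.52 with NK cell markers in both. Within KO tumours the r with these lists was -0.87 and -0.72, but within WT tumours it was 0.26 and 0.44. The difference between host groups in these relations was not tested. Havcr2 had r = 0.21 with macrophage markers, or -0.43 in the 8 tumours. Cd86 had 0.68 with them, or 0.01 in the 8 tumours.

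Further relations with partners outside the set were added after the data had been seen, 29 in all, of which 5 passed by r (permutation, adjusted p = 0.0135 to 0.0251). By rho, those of Tigit with Pvr and Havcr2 with Sqstm1 did not (adjusted p = 0.147 and 0.101). Cd86 followed antigen presentation and interferon genes. Its r was 0.82 with the mean of 6 MHC class II genes (rho = 0.81, permutation p = 9e-04 for r, adjusted p = 0.0135), 0.76 in the 8 tumours and 0.74 without WT hosts 1 and 2. With 13 genes of the interferon gamma axis, a list that shares Ciita with the MHC class II genes, it was 0.80 (rho = 0.87, permutation p = 0.0017 for r, adjusted p = 0.0141), 0.85 in the 8 tumours and 0.69 without KO host 4 and WT host 2. For Cd274 the relations did not pass, at r = 0.27 with the interferon gamma axis (0.17 in the 8 tumours), -0.48 with Ifng and 0.58 with Irf1 (permutation, adjusted p = 0.925, 0.422 and 0.181).

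Tigit rose with Pvr, the gene of a TIGIT ligand (r = 0.76, rho = 0.65, permutation p = 0.0043 for r, adjusted p = 0.0251). The correlation was 0.78 in the 8 tumours but 0.42 without KO hosts 5 and 6, and 0.84 within KO tumours and 0.38 within WT tumours, so the relation rests largely on KO hosts 5 and 6. With Nectin2, the other ligand, r was 0.60 (permutation, adjusted p = 0.181). Lag3 rose with Fgl1, a secreted ligand of LAG-3 (r = 0.79, rho = 0.84, permutation p = 9e-04 for r, adjusted p = 0.0135), at 0.61 in the 8 tumours, 0.74 without KO host 3 and WT host 5, and 0.31 on residuals of the interquartile range. With the MHC class II gene H2-Ab1 its r was -0.16. Havcr2 rose with Sqstm1 (r = 0.80, rho = 0.70, permutation p = 0.0019 for r, adjusted p = 0.0141), at 0.87 within KO tumours and 0.84 within WT tumours. That relation rests on arrays of narrow spread, since r was 0.45 without KO hosts 2 and 3, 0.17 in the 8 tumours and 0.48 on residuals of the interquartile range.

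**Figure D5:**
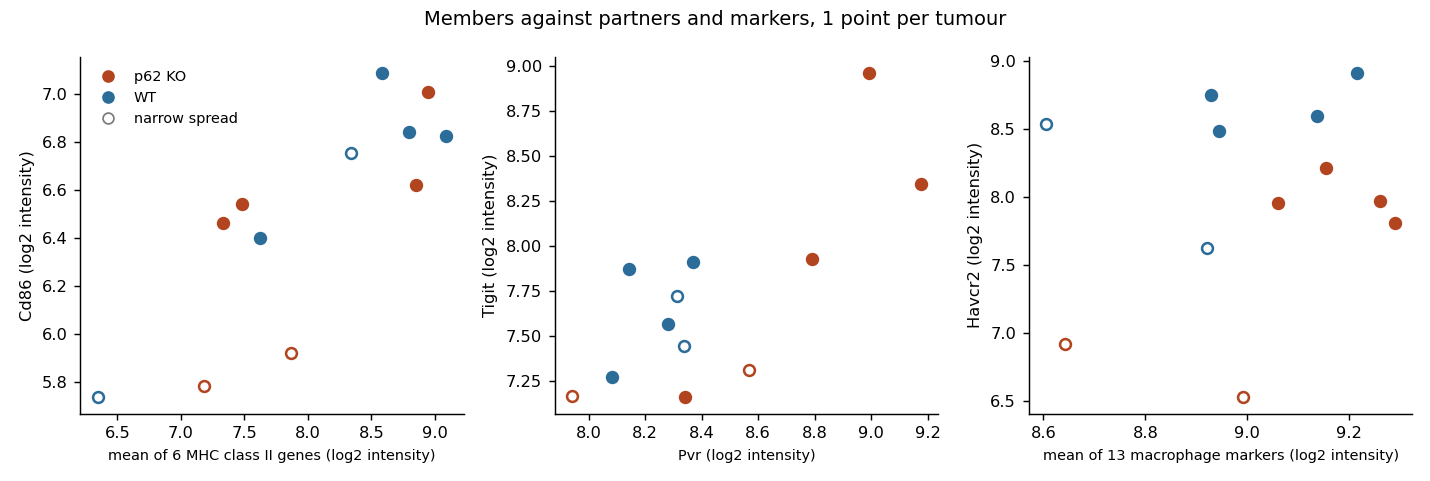
Cd86 against the mean of 6 MHC class II genes, Tigit against Pvr and Havcr2 against the mean of 13 macrophage markers, all as log2 intensity, 1 point per tumour, p62 KO in orange, WT in blue and open for the 4 arrays of narrow spread. Cd86 rises with MHC class II (r = 0.82), Tigit is highest in the KO tumours with the most Pvr, and all WT tumours except that of WT host 5 lie above all KO tumours in Havcr2.

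For each gene, the genes most alike in pattern over the 12 tumours were taken among 19936 others by Pearson's r, as a description. Cd86 was most like Ctsc (r = 0.957), a lysosomal protease, Gm8995 and Cybb (0.945), the phagocyte NADPH oxidase subunit. Havcr2 was most like Cers5 (0.954), Ttc9c and Esco1, Tigit most like Suox (0.923), Serpinb9b and Cab39, and Lgals9 most like Wdr60 (0.944), Akirin1 and Asl. Cd274 was most like Acss2 (0.891), Mical2 and Atxn7l1, Pdcd1lg2 most like Snrpa (0.944), Ccdc65 and Abra, and Cd80 most like Pmm1 (0.904), Camk2n2 and Cdkn2b. Pdcd1 was most like Kcnq5 (0.968), Slc14a2 and Soga3, Ctla4 most like Ripply3 (0.937), Kcnh5 and Pax5, and Lag3 most like Sec14l2 (0.971), Olfr92 and 4921511C20Rik. In the 8 tumours, the correlations of the 10 genes with those named ran from 0.74 (Ctla4 with Pax5) to 0.96 (Lgals9 with Wdr60). Soga3, Kcnh5 and 4921511C20Rik were low, at means of 4.07, 4.84 and 3.51, below the lower quartile of each array. None of the 10 was among the 3 genes most like another.

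Other genes of the same signalling system were not called either. Of 23 measured further inhibitory receptors and ligands, 14 were higher and 9 lower in p62 KO hosts with 0 called by limma, and 2 were higher at an unadjusted p under 0.05, against 1.28% of all probe sets. These were Lgals3, the gene of galectin-3, at 9.11 ± 0.30 in p62 KO hosts and 8.64 ± 0.29 in WT hosts (SD, n = 6 each; difference 0.47, SE 0.16), and Pvr, at 8.63 ± 0.45 and 8.25 ± 0.11 (difference 0.38, SE 0.17). KO hosts 3 to 6 lay above all WT tumours in Pvr. Cd276 (B7-H3) and Vsir (VISTA) differed by -0.08 and 0.10. Of 16 costimulatory genes, 7 were higher and 9 lower with 0 called, and Tnfrsf9, the activation receptor 4-1BB, alone had an unadjusted p under 0.05, at 7.77 ± 0.47 in p62 KO hosts and 7.08 ± 0.51 in WT hosts (SD, n = 6 each; difference 0.69, SE 0.25). In the 8 tumours with arrays of wider spread that difference was 1.09. Cd28 and Icos differed by -0.01 and -0.04.

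Upstream and effector genes were counted in the same way. Of 13 measured genes of the interferon gamma axis, 6 were higher and 7 lower, with Ifng itself at 0.04, Irf1 at -0.10 and Cxcl10 at -0.35. Of 6 MHC class II genes, 5 were lower and 1 higher, and their mean ranged from 7.18 to 8.95 in p62 KO hosts and from 6.34 to 9.09 in WT hosts. Their median difference was -0.25, with H2-Aa at -0.40 and Cd74 at -0.37, and it was -0.51 in the 8 tumours and -0.0083 without KO hosts 2 and 3. Of 13 genes of T cell exhaustion and effector function, 8 were higher and 5 lower, and of 13 T cell markers 7 were higher and 6 lower, with Cd8a at -0.15 and Foxp3, measured with regulatory T cells, at 0.05. In these lists limma called 0 genes, and 0 had an unadjusted p under 0.05. Among markers of other cells, 7 of 7 neutrophil markers were higher, 3 of them at an unadjusted p under 0.05, against 1.28% of all probe sets. Their median difference was 0.30 over the 12 tumours, 0.17 without KO hosts 2 and 3 and 0.15 in the 8 tumours. The prostate epithelial markers, 5 of 5 measured higher, had a median of 0.06 that turned to -0.04 in both of these subsets, and the NK cell markers, 5 of 7 higher, had a median of 0.02 that turned to -0.10 and -0.08. Regulatory T cell markers were 3 higher and 3 lower, dendritic cell markers 4 and 6, fibroblast markers 3 and 5 and endothelial markers 2 and 3. The medians of the fibroblast and endothelial markers, -0.03 and -0.04, turned to 0.10 and 0.24 without KO hosts 2 and 3 and to 0.02 and 0.14 in the 8 tumours. In each of these lists 0 genes were called.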

How the data were processed

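Total RNA of 12 tumours was amplified and run on single-colour arrays with a biotin label, per the labels' protocols. The table the authors deposited gives log2 intensities by probe set, made with RMA, per the submitters' processing notes, with no version given. The table held 34760 rows and 0 gaps. The 6568 of lowest identifier have no annotated gene and were treated as controls, a boundary set from the identifiers. The 28192 tested comprise 21640 with a single gene symbol, 1321 with more and 5231 without. Detection calls, scan dates and batches were not used here, and the number of arrays limits the precision.

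Groups were compared with limma 3.58.1 (lmFit and eBayes, 6 against 6, two-sided, no covariate) in R 4.3.3, with Benjamini-Hochberg adjustment over all tested probe sets. Single genes were also tested by exact two-sided permutation over 924 assignments. Correlations across tumours used 100000 two-sided permutations, adjusted by Benjamini-Hochberg within families of 45, 100 and 29 relations (scipy 1.17.1). The fit was tested on simulated data. The members and 17 gene lists (157 of 167 genes measured) were chosen with earlier results of these data known. Named besides the members are preset anchor genes, up to 4 genes of each of 5 lists with the smallest p, the 3 genes most alike to each member, markers used for the tissue check and the added partners. Alternatives were other normalizations, probe set filters and summaries, array weights, the array's interquartile range as a covariate, the mouse number as a block, and tumours left out. Mouse numbers do not pair the tumours in the labels, and the deviations of same-numbered tumours correlated at -0.55 to 0.37, over 0.1 in 4 of 6.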

Additional observations from a re-analysis of the deposited data

Results flagged for a closer look

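Among 88 sets of 6 tumours (a gene in a host group), 7 held a tumour standing apart by Dixon's criterion. Chance alone gives about 1 in 20 such sets. In Havcr2, WT host 5 was low at 7.63, against 8.48 to 8.91 in the other WT hosts, and it is one of the 4 arrays of narrow spread. In Cxcl10, KO host 4 was high at 9.91, against 8.18 to 8.68 in the other KO hosts. In Tnfsf9, the ligand of 4-1BB, WT host 3 was high at 6.56, against 5.32 to 5.67. KO host 2 was high in Cd40lg, at 4.03 against 3.57 to 3.71, and in Gzma, at 4.49 against 3.84 to 4.04, and both genes lay below the lower quartile on all 12 arrays. WT host 2 was low in Vsir, at 6.84 against 7.19 to 7.38, and in Ido1, at 4.78 against 5.10 to 5.21. KO host 2 and WT host 2 are also among the arrays of narrow spread.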

How the results depend on the processing

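Of the 10 genes, 0 were called in any alternative run. The count over all probe sets, 1, was 0 with the filter on dim probe sets, with all rows of the table, with the replicate block (mouse number) and without KO hosts 2 and 3, and 0 to 1 with each tumour left out in turn. Each block holds a KO and a WT tumour, so the differences stay the same by construction and only their errors can change. With the block, Havcr2 was at -0.92 (limma adjusted p = 0.999), the difference between ligand and receptor means at 0.06, and no member was called. Havcr2 kept its direction under all alternatives, at -1.09 to -0.50, with a lowest limma adjusted p of 0.220, and Cd274, Pdcd1lg2 and Ctla4 kept theirs. Small differences turned. With quantile normalization Lgals9 was 0.035 and Lag3 -0.015. With array weights Lgals9 was 0.054, Pdcd1 -0.052 and Lag3 -0.075. With the interquartile range in the model Lgals9 was 0.015 and Lag3 -0.015. With a common median per array Lag3 was -0.0096. Without KO hosts 2 and 3, Lgals9 was 0.088, Cd86 0.050, Pdcd1 -0.075 and Lag3 -0.092, and in the 8 tumours Pdcd1 was -0.025 and Lag3 -0.052. With each tumour left out in turn, Lgals9 lay between -0.12 and 0.032, Pdcd1 between -0.0094 and 0.15, Lag3 between -0.062 and 0.068, Cd80 between -0.097 and 0.024 (without KO host 5) and Tigit between -0.048 (without KO host 5) and 0.31. Of relations with marker levels, 5 passed over 12 tumours, 2 on residuals of the interquartile range and 0 in the 8 tumours, where fewer tumours were used. The 2 are Cd86 with T cell and with NK cell markers, and 0 of the 5 are among them. The causes of the other shifts were not tested. Pdcd1lg2 is limited by its low signal.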
